A study of Mus musculus with 6 samples.

Results

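Secreted factors of brown fat are described here as 10 genes, Igf1, Fgf13, Fgf21, Ptgds, Nrg4, Vegfa, Bmp8b, Gdf15, Metrnl and Slit2. They were taken by symbol from a table of 54385 gene entries of interscapular brown fat, the heat-producing depot between the shoulder blades, and each symbol matched 1 entry. Polyadenylated RNA was sequenced in 6 libraries, 3 per group, from C57BL/6N mice that had eaten chow for 20 weeks and spent 24 h at 5 °C before dissection. Mice of both groups carried floxed Adcy3 alleles (FL/FL), in the gene of adenylyl cyclase 3, an enzyme that makes cyclic AMP. Control mice had no Cre (Adcy3-FL/FL/Adipoq-wt/wt), and knockout mice carried Adipoq-Cre (Adcy3-FL/FL/Adipoq-wt/cre), which is active in white and brown adipocytes and spares the other cells of the depot. No group was kept warm, so levels are those of cold-exposed fat throughout. The series design text names the inguinal depot and does not mention cold, and the sample labels were followed.

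Brown fat burns fuel for heat and also releases signals that act on its vessels, nerves and stroma and on distant organs such as the liver. Fgf21, Gdf15 and Igf1 are known as circulating hormones, Vegfa, Bmp8b, Nrg4, Metrnl and Slit2 as local or circulating growth and guidance factors, and Ptgds as a secreted lipocalin that makes prostaglandin D2. Signalling through beta-adrenergic receptors and cyclic AMP in the cold is a known inducer of several of them in brown adipocytes, whereas stromal cells and macrophages are known sources of Igf1. Fgf13 differs from its label: it belongs to the FGF homologous factors, which have no classical secretion signal, stay inside the cell and bind voltage-gated sodium channels.

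Levels spanned a wide range, with Vegfa far above the others. Levels between genes are given as counts per 1000000 counts (CPM, scaled by edgeR's TMM factors) per kilobase of merged exons. In controls Vegfa stood at 112 ± 14.6 CPM per kb (SD, n = 3), followed by Nrg4 at 10.8 ± 0.28, Ptgds at 5.65 ± 0.90, Bmp8b at 5.07 ± 0.76 and Metrnl at 3.30 ± 0.70 CPM per kb. Igf1 (1.75 ± 0.37 CPM per kb), Fgf21 (1.09 ± 0.77), Fgf13 (0.85 ± 0.19), Gdf15 (0.31 ± 0.13) and Slit2 (0.017 ± 0.0095) formed the lower end. The control libraries of Ptgds and Bmp8b overlapped in level, as did those of Igf1 and Fgf21 and of Fgf21 and Fgf13, and the other neighbours in this order did not overlap. In knockouts Fgf21 (2.84 ± 1.44 CPM per kb) stood above Igf1 (0.75 ± 0.065) and Gdf15 (0.60 ± 0.53) above Fgf13 (0.28 ± 0.15), the reverse of the control order, although Gdf15 and Fgf13 overlapped there. With the length of the longest transcript in place of merged exons, Fgf13 (1.37) stood above Fgf21 (1.09) in controls and Nrg4 was at 31.4 CPM per kb. Nrg4 has 13 annotated transcripts, so its level per kb depends on which of them the tissue makes.

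**Figure D1:**
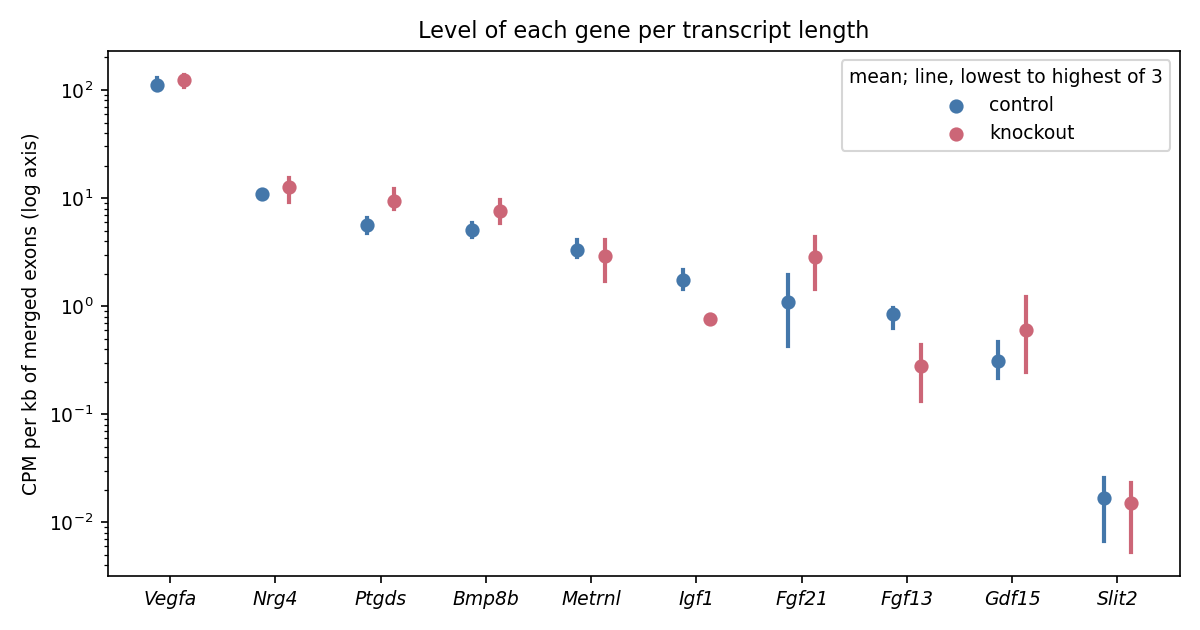
Level of each gene in CPM per kb of merged exons on a log axis, ordered by the control mean; points are group means and lines run from the lowest to the highest of 3 libraries, controls in blue and knockouts in red. Vegfa lies near 112 CPM per kb in controls and Slit2 near 0.017, and Igf1 and Fgf13 are the genes whose red and blue lines stand apart with red lower.

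The promoters are shown for the 4 members that have a single start in the RefSeq table (GRCm38.p6) and an unadjusted p under 0.05 in the comparison below. Fgf13 also had such a p, but 4 starts are annotated and the gene counts do not say which was used. The Igf1 and Ptgds windows lie inside the annotated genes, which have 8 and 5 transcripts. Other annotated starts of both genes lie upstream, and the windows before those starts were not searched. The counts do not say which start was used there either. Each sequence is the 250 bases before the start, 5′ to 3′ on the gene's strand, and capitals mark matches to 4 motifs searched on both strands. The motifs were the cAMP response element TGACGTCA, its short core TGACG, the C/EBP-ATF element TGATGNAAT and the hypoxia response core ACGTG. The core TGACG lies within the full element, and ACGTG within the palindrome CACGTG counts on each strand.
Igf1 (chr10:87860861-87861110, plus strand): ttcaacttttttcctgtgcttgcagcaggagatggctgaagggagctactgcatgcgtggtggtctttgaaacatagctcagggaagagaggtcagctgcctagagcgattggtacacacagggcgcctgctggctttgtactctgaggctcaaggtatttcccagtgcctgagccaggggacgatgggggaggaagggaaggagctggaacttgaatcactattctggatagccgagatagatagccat
Fgf21 (chr7:45615491-45615740, minus strand): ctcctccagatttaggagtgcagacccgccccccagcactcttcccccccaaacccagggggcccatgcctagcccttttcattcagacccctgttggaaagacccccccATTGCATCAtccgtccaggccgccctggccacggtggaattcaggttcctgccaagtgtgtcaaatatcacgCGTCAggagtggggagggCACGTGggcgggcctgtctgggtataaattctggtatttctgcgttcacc
Ptgds (chr2:25469750-25469999, minus strand): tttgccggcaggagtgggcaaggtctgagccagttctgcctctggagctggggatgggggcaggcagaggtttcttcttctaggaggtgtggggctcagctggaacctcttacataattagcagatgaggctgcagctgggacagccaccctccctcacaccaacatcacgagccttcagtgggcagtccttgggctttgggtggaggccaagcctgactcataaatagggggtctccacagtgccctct
Bmp8b (chr4:123104911-123105160, plus strand): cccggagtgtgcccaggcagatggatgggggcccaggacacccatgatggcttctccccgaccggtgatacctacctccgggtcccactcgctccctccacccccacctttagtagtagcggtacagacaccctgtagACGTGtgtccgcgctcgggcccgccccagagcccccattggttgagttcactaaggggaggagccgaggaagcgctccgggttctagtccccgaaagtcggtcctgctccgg

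Of these 4 windows, that of Fgf21 held 3 of the motifs. It has 1 match to TGATGNAAT, read as ATTGCATCA on the strand shown and starting 140 bases before the start, 1 match to TGACG, read as CGTCA, at 68 bases, and the palindrome CACGTG at 50 bases. TGATGNAAT is found in 0.816% of all 32851 promoter windows of this length, TGACG in 17.8% and ACGTG in 16.6%. The Bmp8b window held 1 match to ACGTG, and those of Igf1 and Ptgds held none of the 4 motifs. Over the 15 windows of all 10 members, TGACGTCA was found in 0 (1.55% of all windows hold it), TGACG in 2, TGATGNAAT in 1 and ACGTG in 5. A match describes the letters of the window and is not a measured binding site.

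The libraries held between 13956786 and 17538044 estimated counts. Adcy3 stood at 135, 169 and 158 CPM in controls 1 to 3 and at 21.9, 30.3 and 24.1 CPM in knockouts 1 to 3 (edgeR log2 fold change -2.60, adjusted p = 0.00146). All 12 brown adipocyte markers were tested and had a positive log2 fold change, and their summed level was between 13880 and 14460 CPM in controls and between 16280 and 18700 CPM in knockouts. All 20 skeletal muscle markers had a negative one, and their sum was between 15660 and 21280 CPM in controls and at 9790, 717 and 73.6 CPM in knockouts 1 to 3. Of 12 fibroblast and adipocyte progenitor markers 11 were negative, with sums of 872, 602 and 814 CPM in controls and 600, 405 and 369 CPM in knockouts. As a percent of library counts, each of these 3 sums gave an exact two-sided permutation p of 0.1 (0.167 adjusted over the 10 marker lists). That is the smallest p that 3 against 3 can give. The lymphocyte, leptomeninges and mesothelium, and white adipocyte sums gave the same p. On the first principal component of log2 CPM (58.3% of the variance) knockout library 1, at -20.7, lay nearer to the controls (-43.8 to -34.8) than to knockout libraries 2 and 3 (54.0 and 80.9). On the second (16.5%) it stood apart from the other 5, at -56.2 against -1.18 to 19.4. For the named genes, calls that edgeR made without this library are given beside their values. In bulk tissue, fewer cells of a type and less RNA per cell cannot be told apart.

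The comparison of knockout with control asks whether brown fat whose adipocytes lack adenylyl cyclase 3 makes these factors at another level in the cold. The Igf1 level in knockouts was 0.43 times that in controls and the Fgf13 level 0.32 times, with every knockout library below every control. Ptgds was 1.67 times the control level with every knockout above every control, and Bmp8b (1.497 times) and Fgf21 (2.60 times) were higher on average with overlapping groups. Gdf15, Nrg4, Vegfa, Metrnl and Slit2 also overlapped. None of the 9 tested members passed an adjusted p under 0.05 in edgeR's quasi-likelihood test, where 0.0609% of 14767 tested genes did. At an unadjusted p under 0.05 there were 5 of the 9 (Igf1, Fgf13, Ptgds, Bmp8b and Fgf21), against 10.5% of all tested genes. The members were chosen with earlier results of these data known, so this share is not a test of the set. Among all tested genes 7.63% had every knockout library above every control and 10.8% every knockout below, so groups that do not overlap were common here. Slit2 did not pass the low-count filter and was not tested. The median log2 fold change of the 9 was 0.23, and that of all tested genes was 0.01.

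**Figure D2:**
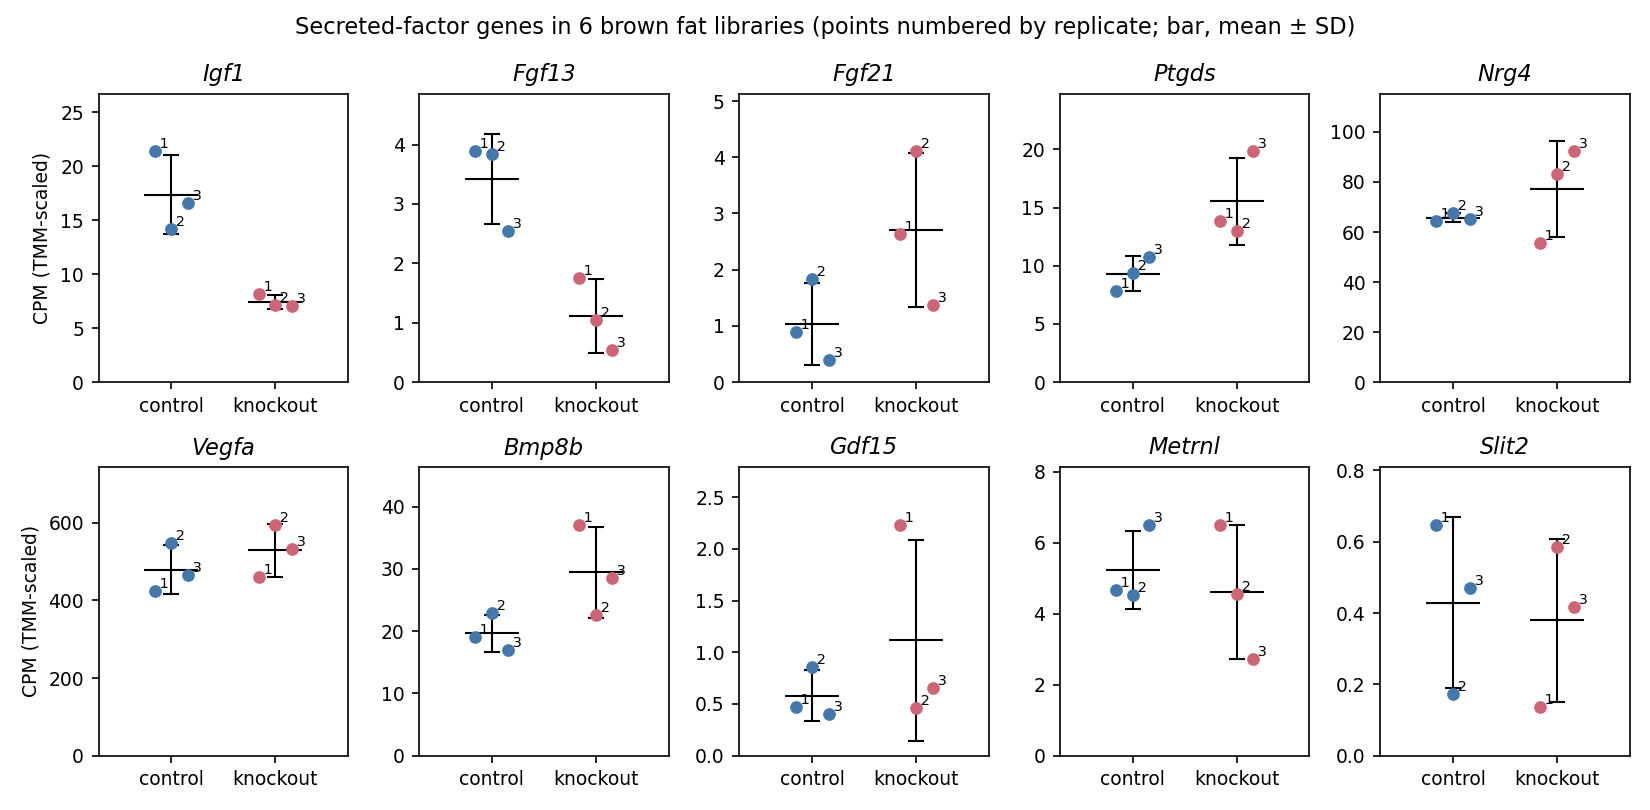
CPM of the 10 genes in each library (vertical axes start at 0 and differ between panels); points are single libraries numbered by replicate, and bars give the mean ± SD of 3. Igf1 and Fgf13 are lower in all 3 knockouts, Ptgds is higher in all 3, and in the other panels the groups overlap.

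Other fits gave other counts of called members. DESeq2's Wald test called 1, Igf1 (log2 fold change -1.21, adjusted p = 7.80e-05), where 1.53% of the genes with an adjusted p were called, and limma-voom called 0. Without knockout library 1, edgeR called 3 members, Igf1 (-1.29, adjusted p = 0.00345), Fgf13 (-2.12, adjusted p = 0.0130) and Nrg4 (0.42, adjusted p = 0.0421), and 5.64% of all tested genes. With no low-count filter 5 members were called, the same 5 that had an unadjusted p under 0.05 with the filter, and 2.80% of all genes.

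**Figure D3:**
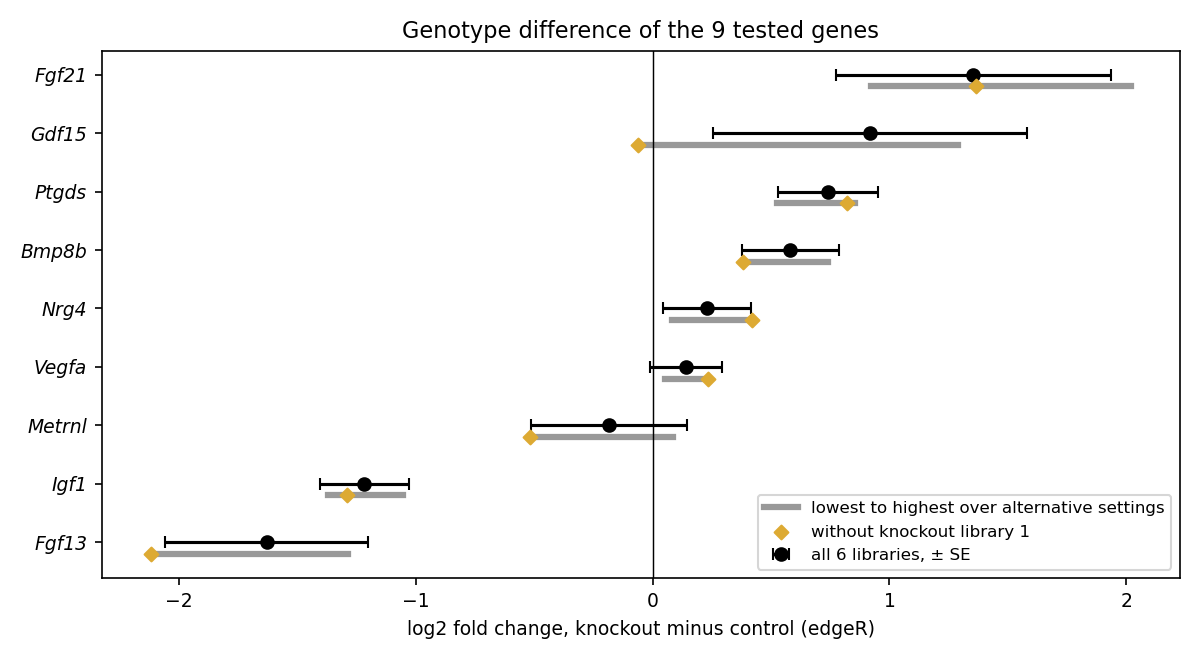
edgeR log2 fold change of the 9 tested genes, knockout minus control; black points and bars give the estimate from all 6 libraries ± SE, grey bars run from the lowest to the highest estimate over the alternative settings, and diamonds mark the fit without knockout library 1. The grey bars of Gdf15 and Metrnl cross 0, and Igf1 lies between -1.37 and -1.06 in every setting shown.

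Igf1 encodes insulin-like growth factor 1, a circulating factor that growth hormone induces, with known roles in adipocyte and muscle growth (ENSMUSG00000020053, GRCm38 chromosome 10, 87858265 to 87937042, plus strand). It stood at 21.4, 14.2 and 16.6 CPM in controls 1 to 3 and at 8.19, 7.17 and 7.01 CPM in knockouts 1 to 3. The knockouts lay close together, the lowest control being well above the highest knockout. This gave an edgeR log2 fold change of -1.22 ± 0.19 (SE; adjusted p = 0.0919). Its p ranked 29 among all tested genes. Igf1 is known to be made by stromal cells and macrophages besides adipocytes. As a percent of the control mean, Igf1 was at 47.2, 41.3 and 40.4 in knockouts, the fibroblast and progenitor markers at 78.7, 53.1 and 48.4, and the muscle markers at 52.0, 3.80 and 0.391. The 12 macrophage markers, of which 11 had a negative log2 fold change, summed to between 98.5 and 186 CPM in controls and to 165, 84.4 and 76.4 CPM in knockouts. In the controls too, library 1 had the highest CPM of Igf1 and of the fibroblast markers and library 2 the lowest. The part of these cell types in the Igf1 difference was not tested. The Igf1 antisense gene Igf1os, which overlaps it on the opposite strand, was at 0.172 CPM or less in every library.

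**Figure D4:**
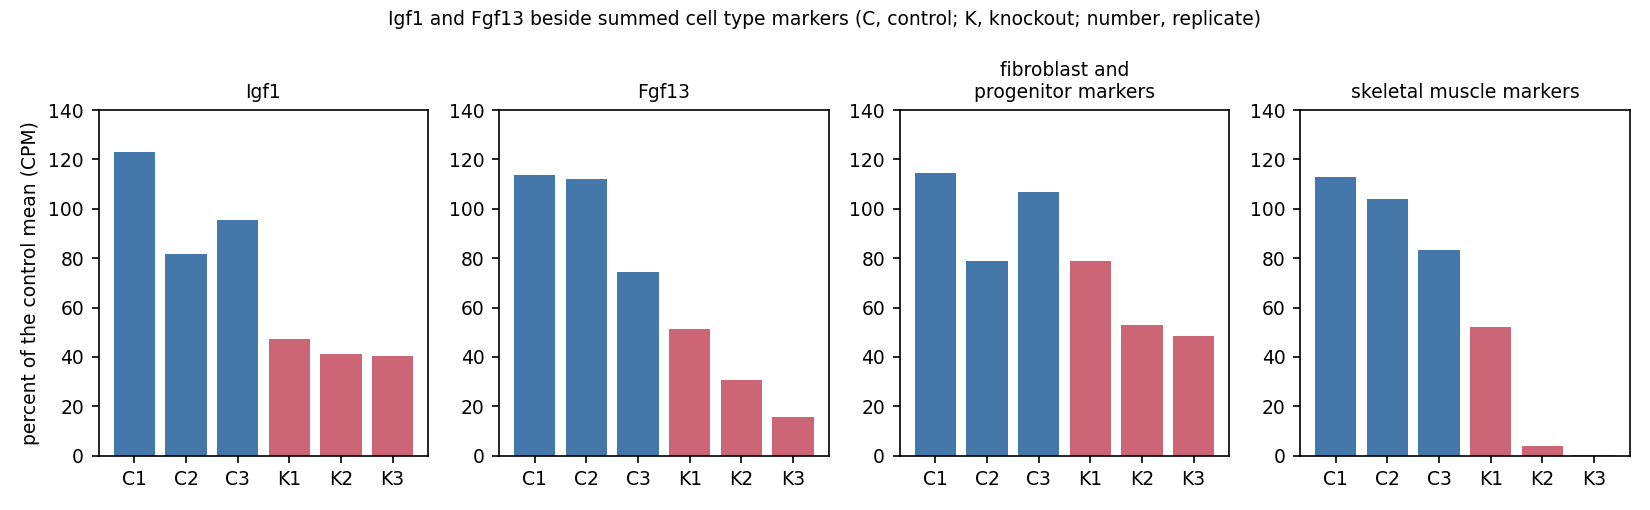
Igf1, Fgf13, the summed fibroblast and progenitor markers and the summed skeletal muscle markers in each library as a percent of the control mean (CPM; C, control; K, knockout; bars are single libraries). Igf1 is between 40.4% and 47.2% in the knockouts, and Fgf13 runs from 51.4% in knockout library 1 to 15.6% in knockout library 3. In every panel knockout library 1 is the highest knockout and knockout library 3 the lowest.

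Most other genes of the IGF axis had negative values too, without passing the edgeR test. Of 13 ligands, receptors and growth hormone signalling genes, Igf1 included, 11 had a negative and 2 a positive log2 fold change, with a median of -0.36. Stat5b, a transcription factor of growth hormone signalling, stood at 60.1 ± 5.33 CPM in controls against 46.8 ± 4.58 CPM in knockouts (SD, n = 3 each; log2 fold change -0.36 ± 0.13, SE). Socs2, a feedback inhibitor that growth hormone induces through Stat5b, stood at 8.58 ± 2.32 and 5.46 ± 0.81 CPM (-0.65 ± 0.24). The knockouts of both genes lay below all controls. The receptor Igf1r was at 16.1 ± 1.26 and 13.6 ± 1.19 CPM (-0.24 ± 0.14), also without overlap. Of the 10 tested IGF binding proteins and their proteases 9 were negative (median -0.51). Igfbp5, a binding protein held in the matrix, stood at 79.9 ± 1.88 CPM in controls against 57.6 ± 6.50 CPM in knockouts (-0.47 ± 0.12), and Igfals, which holds IGF1 in a large complex in blood, at 7.51 ± 1.02 and 4.32 ± 1.51 CPM (-0.79 ± 0.27).

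Fgf21 encodes a hormone that acts on fat, liver and brain through FGF receptors with the co-receptor beta-Klotho, and it is known to be induced by cyclic AMP in cold brown fat (ENSMUSG00000030827, chromosome 7, 45613886 to 45615490, minus strand). It was scarce, with 53 counts in all 3 controls combined and 125 in all 3 knockouts. The level was 0.883, 1.83 and 0.402 CPM in controls 1 to 3 and 2.64, 4.11 and 1.37 CPM in knockouts 1 to 3. Knockout library 3 lay below control library 2, and the other knockouts lay above every control. In edgeR the log2 fold change was 1.35 ± 0.58 (SE; adjusted p = 0.475). The ratio of summed counts was 2.48 with a 95% exact interval of 1.78 to 3.49, which covers counting error only, whereas Fgf21 varied by 4.56 times between the controls themselves. Leaving out each library in turn moved the log2 fold change between 0.92 and 2.02.

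Its receptors had smaller fold changes. Fgfr1, the main FGF receptor of adipocytes, stood at 68.9 ± 5.69 CPM in controls against 57.2 ± 9.04 CPM in knockouts (-0.27 ± 0.15), and Klb, the gene of beta-Klotho, at 23.1 ± 0.96 and 23.0 ± 8.22 CPM (0.00 ± 0.26). For Klb, knockout library 1 had 13.7 CPM, whereas libraries 2 and 3 had 29.1 and 26.2 CPM. Of 12 tested receptors, co-receptors and feedback genes 6 were positive and 6 negative (median 0.01). Dusp6, a feedback gene of this list, was higher in all knockouts. It stood at 55.4 ± 3.15 CPM in controls against 75.2 ± 13.4 CPM in knockouts (0.44 ± 0.15). The feedback genes Spry1 (0.02 ± 0.31), Spry2 (-0.09 ± 0.21) and Spry4 (0.22 ± 0.20) overlapped between groups. Etv4 and Etv5, transcription factors that FGF signalling is known to induce, were lower in all knockouts. Etv4 stood at 0.883, 1.43 and 0.938 CPM in controls and at 0.068, 0.130 and 0.297 CPM in knockouts (54 and 8 counts; -2.63 ± 0.56; edgeR adjusted p = 0.162, and 0.0091 with no low-count filter). Etv5 stood at 5.58 ± 0.57 and 3.06 ± 0.87 CPM (-0.86 ± 0.26; edgeR adjusted p = 0.296). Among the 5 other tested secreted FGF ligands the median was -0.28, and Fgf10, a stromal ligand that acts on adipocyte progenitors, was at 3.63 ± 1.11 and 2.50 ± 0.17 CPM (-0.53 ± 0.30), while Fgf1 was at 29.8 ± 7.08 and 24.6 ± 2.62 CPM (-0.28 ± 0.19).

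Fgf13 (ENSMUSG00000031137, chromosome X, 59062145 to 59568071, minus strand) had the largest negative value of the members. It stood at 3.89, 3.84 and 2.55 CPM in controls 1 to 3 and at 1.76, 1.04 and 0.53 CPM in knockouts 1 to 3, on 171 counts in the controls combined and 51 in the knockouts combined. Every knockout was below every control, and the knockouts differed by 3.29 times between the highest and the lowest. By edgeR the log2 fold change came to -1.63 ± 0.43 (SE; adjusted p = 0.241). The knockouts followed the order of their skeletal muscle markers, with library 1 highest and library 3 lowest, as did the controls. Igf1 and the fibroblast markers had the same order in the knockouts. The part of muscle tissue in the Fgf13 difference was not tested. Its known partners, the voltage-gated sodium channels, were negative in all 6 genes tested, of 14 listed (median -1.41). Scn4a, the channel of skeletal muscle, stood at 68.3, 64.5 and 50.1 CPM in controls and at 19.0, 2.67 and 0.059 CPM in knockouts. Scn4b, a beta subunit, stood at 87.4, 79.4 and 63.9 CPM in controls and at 36.2, 8.02 and 8.73 CPM in knockouts. Without knockout library 1 edgeR called Scn4a (-5.52, adjusted p = 0.000217) and Scn4b (-3.20, adjusted p = 7.28e-06), against -3.08 and -2.13 with all libraries. Of the other FGF homologous factors, Fgf11 was at 8.46 ± 2.00 and 9.09 ± 1.48 CPM (0.11 ± 0.22), and Fgf14 at 0.750 ± 0.41 and 1.12 ± 0.48 CPM (0.60 ± 0.52), neither with separate groups.

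Ptgds encodes the lipocalin-type prostaglandin D synthase, which turns prostaglandin H2 into prostaglandin D2 and also carries small lipids outside the cell (ENSMUSG00000015090, chromosome 2, 25466709 to 25470046, minus strand). It stood at 7.83, 9.34 and 10.8 CPM in controls 1 to 3 and at 13.8, 12.97 and 19.8 CPM in knockouts 1 to 3. Every knockout lay above every control, and knockout library 3 was the highest of all 6. This gave an edgeR log2 fold change of 0.74 ± 0.21 (SE; adjusted p = 0.282), and 0.82 without knockout library 1 (adjusted p = 0.0562). The sum of 8 leptomeninges and mesothelium markers, other known sources of Ptgds, was between 6.84 and 8.19 CPM in controls and between 4.16 and 4.74 CPM in knockouts, and 2 of the 8 genes passed the low-count filter. Upk3b and Wt1 had 0 counts in every library. The part of these cells in the Ptgds values was not tested.

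The other prostaglandin genes showed no common direction. Of 12 tested genes of prostaglandin synthesis and breakdown, Ptgds included, 6 were positive and 6 negative (median -0.10). Hpgds, the other prostaglandin D synthase of the list, stood at 2.65 ± 0.42 CPM in controls against 1.93 ± 0.29 CPM in knockouts (-0.46 ± 0.27). Its knockouts all lay below the controls, the opposite direction to Ptgds. Ptgis, the prostacyclin synthase, stood at 1.40 ± 0.021 CPM in controls against 0.520 ± 0.39 CPM in knockouts (-1.43 ± 0.52), and Ptges2, named as a prostaglandin E synthase, at 65.5 ± 4.60 and 81.0 ± 17.5 CPM (0.31 ± 0.17). For Ptgis the log2 fold change without knockout library 1 was -2.15 (edgeR adjusted p = 0.0461). The receptors of prostaglandin D2 were below the detection floor or near it: Ptgdr had 1 count in each group and Ptgdr2 had 4 counts in controls and 0 in knockouts. The prostaglandin E receptor Ptger3, which lowers cyclic AMP, was at 42.6 ± 2.52 and 34.8 ± 6.89 CPM (-0.29 ± 0.16), and Ptger2, which raises it, at 0.419 ± 0.14 and 0.897 ± 0.060 CPM (1.07 ± 0.41; 21 and 42 counts), with every knockout above every control.

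Bmp8b encodes a ligand of the bone morphogenetic family that brown adipocytes make in the cold and that is known to raise their response to adrenergic drive and to shape nerves and vessels (ENSMUSG00000002384, chromosome 4, 123105165 to 123132099, plus strand). It stood at 19.1, 22.9 and 17.0 CPM in controls 1 to 3 and at 37.1, 22.6 and 28.6 CPM in knockouts 1 to 3. Knockout library 2 lay within the controls and the other knockouts above them. In edgeR the log2 fold change was 0.58 ± 0.21 (SE; adjusted p = 0.380), and 0.38 without knockout library 1 (adjusted p = 0.279). Ppie overlaps Bmp8b on the opposite strand, at 7.66 to 10.8 CPM in controls and 7.96 to 11.8 CPM in knockouts, and whether the counting used strand is not stated. Reads in the shared stretch therefore cannot be assigned with certainty.

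Gdf15 encodes a stress-induced hormone that acts on the hindbrain to lower appetite (ENSMUSG00000038508, chromosome 8, 70629393 to 70632456, minus strand). It had 29 counts in the controls combined and 51 in the knockouts combined, at 0.471, 0.859 and 0.402 CPM in controls 1 to 3 and 2.23, 0.456 and 0.653 CPM in knockouts 1 to 3. Knockout library 1 alone lay above the controls. The edgeR log2 fold change of 0.92 ± 0.66 (SE; adjusted p = 0.679) became -0.06 ± 0.58 without that library. Its receptor gene Gfral, known from the hindbrain, had 0 counts in all 6 libraries, where 3 counts would be 0.172 to 0.203 CPM.

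The other BMP ligands lay mostly on the opposite side to these 2 genes. Of 15 tested BMP and GDF ligands 12 were negative and 3 positive, the 3 being Bmp8b, Gdf15 and Bmp6 (0.04), and the median of the 13 without Bmp8b and Gdf15 was -0.59. Bmp4, a ligand that commits progenitors to the adipocyte lineage, stood at 1.60 ± 0.35 CPM in controls against 0.576 ± 0.18 CPM in knockouts (-1.46 ± 0.39; 78 and 27 counts), and Inhbb, an activin subunit, at 2.12 ± 0.17 and 1.14 ± 0.25 CPM (-0.89 ± 0.30). Of 8 tested BMP inhibitors 7 were negative (median -0.68). Fstl1, a secreted glycoprotein of stromal cells, stood at 38.9 ± 4.91 and 24.7 ± 2.43 CPM (-0.66 ± 0.14; edgeR adjusted p = 0.171), and Chrd, which traps BMPs, at 2.15 ± 0.41 and 0.734 ± 0.25 CPM (-1.55 ± 0.37; edgeR adjusted p = 0.205). The knockouts of these 4 genes lay below every control. DESeq2 called Fstl1 (adjusted p = 0.0178), and without knockout library 1 edgeR called Fstl1 (-0.73, adjusted p = 0.0126) and Chrd (-1.85, adjusted p = 0.0316). With no low-count filter edgeR called both as well, Fstl1 with adjusted p = 0.0103 and Chrd with adjusted p = 0.0395 (-1.54). Fibroblast markers were lower in the same libraries, as given above, and their part was not tested.

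The BMP receptors and Smads had a median of -0.01 over 19 tested genes. Acvr1 stood at 9.78 ± 0.91 and 5.76 ± 1.12 CPM (-0.77 ± 0.19) and Bmpr1a, a type I receptor that brown fat formation needs, at 45.3 ± 9.19 and 31.7 ± 2.35 CPM (-0.51 ± 0.17), both with all knockouts below all controls. With knockout library 1 left out, edgeR called Acvr1 (-0.93, adjusted p = 0.0130). Acvr1c, the ALK7 receptor of mature adipocytes, was at 67.0 ± 10.3 and 60.4 ± 10.3 CPM (-0.15 ± 0.17), and Bmpr2 at 63.5 ± 7.06 and 63.1 ± 11.4 CPM (-0.01 ± 0.16).

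Nrg4 encodes neuregulin 4, an EGF-like ligand that brown fat releases and that acts on ErbB3 and ErbB4 in liver and nerve (ENSMUSG00000032311, chromosome 9, 55220222 to 55326844, minus strand). The controls were nearly equal, at 64.2, 67.6 and 65.2 CPM in libraries 1 to 3, and the knockouts were at 55.6, 83.3 and 92.3 CPM. Knockout library 1 lay below every control and the other 2 knockouts above every control. With all libraries the edgeR log2 fold change was 0.23 ± 0.19 (SE; adjusted p = 0.718), and without knockout library 1 it was 0.42 ± 0.10 (SE; adjusted p = 0.0421). Its 3′ part shares 202 bases at 100% identity with a transcript of Fbxo22 on the opposite strand, which stood at 19.7 to 22.4 CPM in controls and 17.7 to 22.4 CPM in knockouts, so the assignment of reads from that stretch is uncertain.

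Among its relatives, Erbb3 stood at 4.50 ± 0.59 CPM in controls against 3.35 ± 0.84 CPM in knockouts (-0.43 ± 0.26), and Erbb4 at 1.74 ± 0.46 and 2.64 ± 1.42 CPM (0.60 ± 0.46). For Erbb4, knockout library 1 had 1.15 CPM, whereas libraries 2 and 3 had 3.98 and 2.79 CPM, which is the same split between knockouts as for Nrg4. Of 7 tested ErbB receptors and feedback genes 6 were negative (median -0.19). Egfr, the EGF receptor, stood at 6.68 ± 2.25 and 3.08 ± 1.39 CPM (-1.12 ± 0.40), and Lrig1, which limits ErbB signalling, at 26.9 ± 1.26 and 20.4 ± 2.80 CPM (-0.40 ± 0.14). Of the ligands, Egf was at 4.74 ± 0.81 and 1.37 ± 0.74 CPM (-1.78 ± 0.43), while Nrg2 was at 0.118, 0.458 and 0.201 CPM in controls and 1.01, 0.848 and 0.831 CPM in knockouts (13 and 42 counts; 1.75 ± 0.53). None of these passed the edgeR test with the low-count filter and all libraries. Egf was called by DESeq2 (adjusted p = 0.00833) and by edgeR without knockout library 1 (-1.98, adjusted p = 0.0315). With no low-count filter edgeR called Egf (-1.77, adjusted p = 4.59e-05) and Egfr (-1.11, adjusted p = 0.00634).

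Vegfa encodes the main growth factor of blood vessels, which adrenergic drive and low oxygen are known to induce in brown fat (ENSMUSG00000023951, chromosome 17, 46016993 to 46032369, minus strand). Vegfa stood at 424, 548 and 465 CPM in controls 1 to 3 and at 459, 595 and 533 CPM in knockouts 1 to 3. The groups overlapped, with a control in second place among the 6. The edgeR log2 fold change was 0.14 ± 0.15 (SE; adjusted p = 0.803), and 2 standard errors to each side span -0.16 to 0.45. With 23712 counts in the controls combined and 24878 in the knockouts combined, the counting error is small, so the spread between libraries sets this precision. Its endothelial receptors Kdr (202 ± 36.6 and 209 ± 49.8 CPM; 0.05 ± 0.21) and Flt1 (108 ± 14.0 and 115 ± 27.1 CPM; 0.09 ± 0.19) overlapped between groups. The median of 9 tested VEGF and angiopoietin receptors and ligands of the latter was 0.04. Vegfd, a ligand that also acts on lymphatic vessels, stood at 2.37 ± 0.098 and 1.30 ± 0.23 CPM (-0.86 ± 0.28), and Angpt1, which steadies vessels, at 5.71 ± 1.94 and 3.37 ± 0.54 CPM (-0.76 ± 0.29), both lower in all knockouts, while Vegfc was at 1.19 ± 0.25 and 1.74 ± 0.14 CPM (0.55 ± 0.31), higher in all knockouts. Tie1, an endothelial receptor, was at 63.6 ± 11.3 and 73.0 ± 4.99 CPM (0.20 ± 0.15), with overlap. The 11 tested hypoxia-inducible factors and targets had a median of 0.04. Among them Egln1, an oxygen sensor that marks HIF for breakdown, stood at 488 ± 22.4 and 576 ± 50.2 CPM (0.24 ± 0.12) with every knockout above every control. Arnt, a partner of the HIF factors, went the other way, at 33.2 ± 1.55 and 27.7 ± 3.41 CPM (-0.26 ± 0.13) with every knockout below every control. Endothelial markers summed to between 728 and 942 CPM in controls and between 792 and 931 CPM in knockouts.

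Metrnl encodes meteorin-like, a factor released by muscle and fat in exercise and cold (ENSMUSG00000039208, chromosome 11, 121701544 to 121716306, plus strand). It stood at 4.65, 4.53 and 6.50 CPM in controls 1 to 3 and at 6.50, 4.56 and 2.73 CPM in knockouts 1 to 3. Knockout library 3 lay below every control, and knockout library 1 was level with the highest control. The edgeR log2 fold change was -0.19 ± 0.33 (SE; adjusted p = 0.892), and it was 0.08 ± 0.28 without knockout library 3. Its relative Metrn stood at 5.83, 4.87 and 4.56 CPM in controls and at 7.24, 1.37 and 1.90 CPM in knockouts (-0.54 ± 0.56), with knockout library 1 above every control and the other 2 below. Without that library the log2 fold change of Metrn was -1.63 (edgeR adjusted p = 0.00768). Kit, a receptor described for meteorin-like in the heart, was at 8.47 ± 3.16 and 11.9 ± 3.50 CPM, with overlapping groups.

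Slit2 encodes an axon and vessel guidance protein, a cleaved fragment of which is known to act on fat (ENSMUSG00000031558, chromosome 5, 47983138 to 48307733, plus strand). It was near the detection limit, with 21 counts in the controls combined and 18 in the knockouts combined. The level was 0.648, 0.172 and 0.469 CPM in controls 1 to 3 and 0.135, 0.587 and 0.416 CPM in knockouts 1 to 3. The ratio of summed counts was 0.901 with a 95% exact interval of 0.453 to 1.78 for counting error, so a difference smaller than that was not detectable at this depth. The related Slit3 had more counts, with means of 18.2 CPM in controls and 14.9 CPM in knockouts. Of the receptors, Robo4, which marks endothelium, stood at 32.7 ± 8.10 and 37.5 ± 4.02 CPM (0.20 ± 0.19), Robo1 at 1.21 ± 0.71 and 0.636 ± 0.22 CPM (-0.91 ± 0.53), and Robo2 had 11 and 5 counts. Gpc1, a heparan sulfate proteoglycan that binds Slit, stood at 57.1, 63.4 and 51.2 CPM in controls and at 47.9, 9.97 and 7.24 CPM in knockouts. Its log2 fold change without knockout library 1 went from -1.40 to -2.73 (edgeR adjusted p = 1.38e-05). Its knockouts followed the muscle markers in order, and the part of muscle was not tested.

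Besides these members, 32 other secreted factors of fat were listed and 31 tested. By edgeR 0 passed and 8 had an unadjusted p under 0.05 (10.5% of all tested genes did), while DESeq2 called 5, Tgfb3, Retn, Lep, Cfd and Fbn1 (1.53% of all genes). Without knockout library 1 edgeR also called Tgfb3 (adjusted p = 0.00347), Retn (0.00914), Lep (0.00833) and Cfd (0.0166), among others. Of the 31, 14 were positive and 17 negative, and the median was -0.06, close to that of all genes. Tgfb3, a growth factor of the matrix, was lowest in p, at 7.30, 8.88 and 9.99 CPM in controls and 3.86, 2.67 and 3.45 CPM in knockouts (-1.39 ± 0.22; edgeR adjusted p = 0.0919). Retn, the adipokine resistin, came next, at 39.1 ± 9.20 CPM in controls against 19.0 ± 1.195 CPM in knockouts (-1.04 ± 0.19). White adipocyte markers, Lep and Retn among them, were negative in 8 of 9 tested genes and summed to between 252 and 324 CPM in controls and between 199 and 258 CPM in knockouts, and their part in these values was not tested. Over all 20 pathway lists, members left out, edgeR called 0 of 192 tested genes and 46 had an unadjusted p under 0.05, against 10.5% of all tested genes. For the same lists limma-voom called 0 and DESeq2 10 of 212, against 1.53% of all genes. Without knockout library 1, edgeR called 25 of 196, against 5.64% of all genes. With no low-count filter it called 25 of 234, against 2.80%. The lists too were chosen with earlier results of these data known, so these shares do not test them. Of the 25 called without knockout library 1, 23 were lower, and over all genes 812 of the 857 called were lower in that fit.

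**Figure D5:**
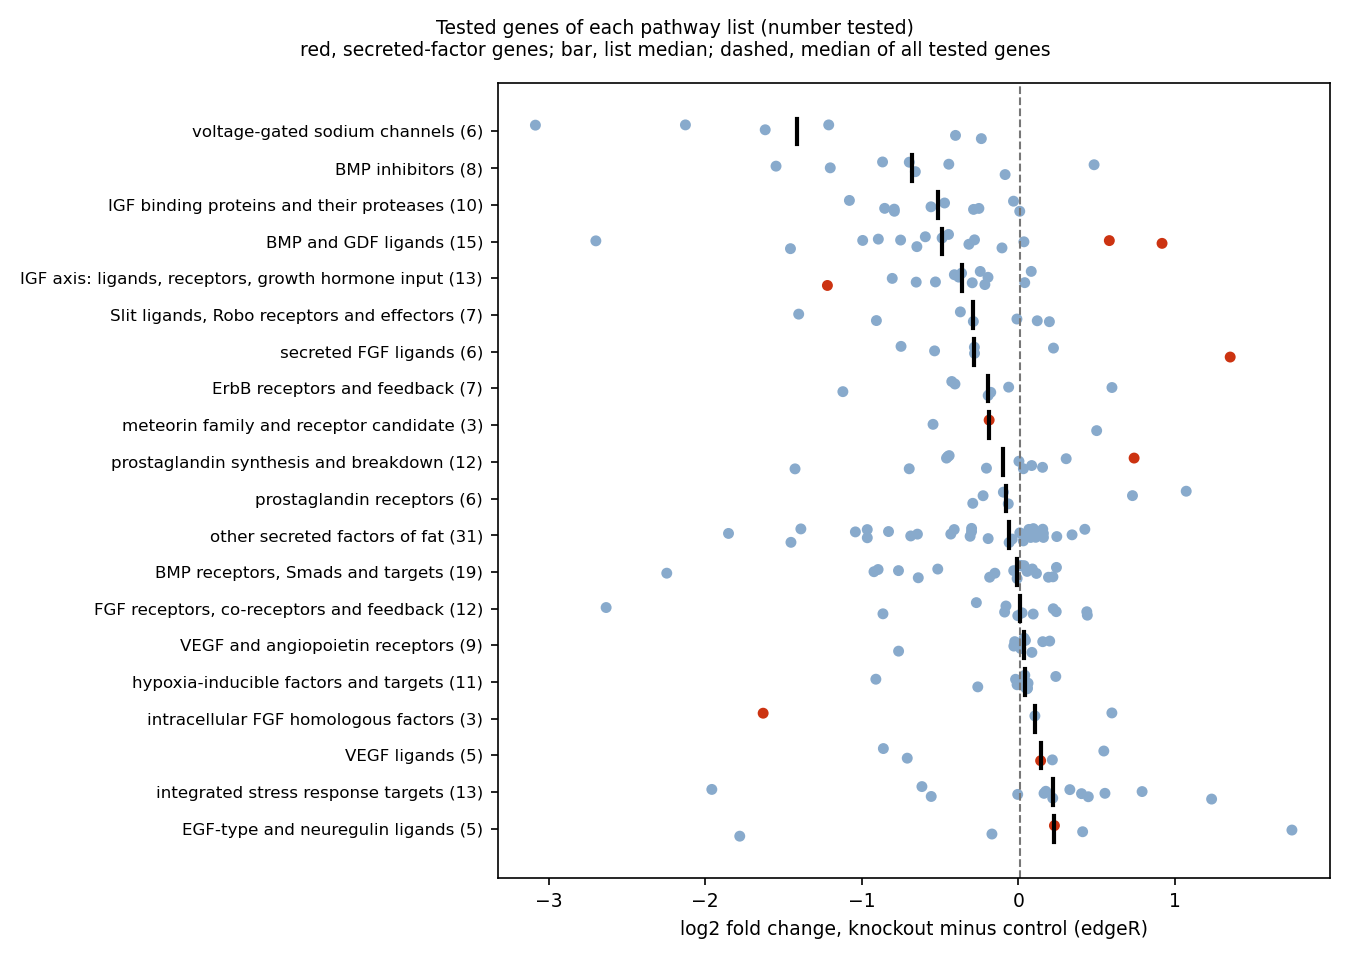
edgeR log2 fold change (knockout minus control) of every tested gene of the 20 pathway lists, 1 point per gene; red points are members of the secreted-factor set, bars give list medians and the dashed line the median of all tested genes at 0.01. List medians run from -1.41 (voltage-gated sodium channels) to 0.23 (EGF-type and neuregulin ligands), and Fgf21, Gdf15, Bmp8b and Ptgds lie at the upper end of their lists.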

How the data were processed

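Estimated counts per gene, not normalized, are what the authors deposited, with 1 column per sample, judged from the file's values. Tools named by the submitters' processing notes are StringTie, Salmon and edgeR, with the build GRCm38. For versions, settings and use of strand, nothing is given in the sources used here. Columns were matched to samples by the name in each description. Symbols, positions and exon lengths came from GENCODE vM21 (54131 of 54385 identifiers matched), and promoters from RefSeq (GRCm38.p6), where all 10 members matched. After rounding, low genes were dropped with filterByExpr (minimum count 10 and minimum total 15), and the rest entered the quasi-likelihood test of edgeR 4.0.16 in R 4.3.3 (TMM, two-sided, genotype only), with Benjamini-Hochberg adjustment over 14767 genes. A standard error is the log2 fold change over the square root of F. The functions were tested on simulated data. Transcripts were compared with blastn 2.17.0 (at least 90% identity over 100 bases).

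Library totals ran from 13956786 to 17538044 estimated counts, and 3 counts are 0.172 to 0.203 CPM. Within each group, libraries differed beyond sampling noise. The labels number replicates without saying that each is a separate animal, so p-values measure only the spread between these samples, which may be technical. Intervals cover counting error only. Members and lists were chosen with earlier results of these data known, and lists were described by counts and medians. Genes named besides members were the 2 with the smallest p in each list, known receptors, Adcy3 and the 2 nearest genes of each member with a mean of at least 1 CPM. Any other named gene (Slit3, Bmp6, Lep, Cfd, Fbn1, Asns, Atf5, Dusp6, Spry1, Spry2, Spry4, Hpgds, overlapping genes, markers) was chosen after its values were seen. Alternatives were RLE factors, DESeq2 1.42.0, limma-voom (limma 3.58.1), no low-count filter, at least 1 CPM in 3 libraries, a block for the replicate number, no mitochondrially encoded genes, and each library left out.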

Additional observations from a re-analysis of the deposited data

How the results depend on the processing

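The number of called genes depended strongly on the method. edgeR called 9 genes, DESeq2 289 (31 higher, 258 lower), limma-voom 33, edgeR with no low-count filter 893 and edgeR with the replicate block 4. Leaving out each library gave from 4 to 857, the highest without knockout library 1. Of the members, DESeq2 called 1, the fit with no low-count filter 5, and the fits leaving out each library 0 to 3. The cause was not tested. Adcy3 stayed past the threshold in all 13 alternatives. In those tested, Igf1 (-1.37 to -1.06), Fgf13 (-2.12 to -1.29), Fgf21 (0.92 to 2.02), Ptgds (0.52 to 0.85), Bmp8b (0.38 to 0.74), Nrg4 (0.08 to 0.42) and Vegfa (0.05 to 0.24) kept their direction. The log2 fold change of Gdf15 turned to -0.0618 without knockout library 1 and that of Metrnl to 0.0841 without knockout library 3; with each library left out in turn they ran from -0.06 to 1.29 and from -0.52 to 0.08. With longest transcripts, 8 of 10 members kept their rank in the level order. The replicate numbers are not said to mark shared animals or batches, and same-numbered libraries deviated together only weakly (correlations of 0.07, 0.11 and 0.05, each the highest for its library), so the block was not used. The block changed no member's call. Depth limits Fgf13, Fgf21, Gdf15 and Slit2 most, each with 53 or fewer counts in at least 1 group.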

Other observations

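Targets of the integrated stress response, the pathway known to induce Fgf21 and Gdf15 under amino acid or mitochondrial stress, did not share a direction. Of 13 tested genes 9 had a positive and 4 a negative log2 fold change (median 0.22). In these, edgeR called 0 and 4 had an unadjusted p under 0.05 (10.5% of all tested genes did), while DESeq2 called 3, Mthfd2, Chac1 and Asns (1.53% of all genes). Without knockout library 1 edgeR called the same 3 (adjusted p = 0.00175, 0.00723 and 0.00655), where 5.64% of all genes were called. Mthfd2, a mitochondrial folate enzyme, stood at 4.83, 3.95 and 4.09 CPM in control libraries 1 to 3 and at 7.78, 9.97 and 12.5 CPM in knockout libraries 1 to 3 (log2 fold change 1.23 ± 0.22, SE; edgeR adjusted p = 0.120). Chac1, which degrades glutathione, stood at 7.71, 13.9 and 12.3 CPM in controls and at 3.86, 3.52 and 1.37 CPM in knockouts (-1.96 ± 0.39; edgeR adjusted p = 0.148). Both are known targets of the same factor, ATF4, and their groups were apart in opposite directions. In this list 3 genes had every knockout above every control and 1, Chac1, every knockout below (7.63% and 10.8% of all tested genes). Besides Mthfd2, those above were Asns (35.1 ± 1.82 CPM in controls, 51.5 ± 4.50 CPM in knockouts; 0.55 ± 0.12) and Atf5 (318 ± 31 and 434 ± 59 CPM; 0.45 ± 0.15).

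For the 8 tested members with a mean of at least 1 CPM, which leaves out Gdf15 and Slit2, the most similar genes were taken as the 2 with the smallest root mean square difference of centred log2 CPM over the 6 libraries. The candidates were 9434 named genes with a mean of at least 5 CPM. Nrg4 was followed closely by Gpam (0.03 on the log2 scale), an enzyme of glycerolipid synthesis, and Slc6a6 (0.05), a taurine transporter, against a spread of 0.24 for Nrg4 itself. Gpam stood at 708, 773 and 745 CPM in controls and at 614, 894 and 1022 CPM in knockouts, with library 1 lowest as for Nrg4. Vegfa was followed by Pigm (0.03) and Rdh13 (0.04), against a spread of 0.17. Bmp8b was followed by H2afy2 and Wdr61 (0.08 each, spread 0.37), all 3 with knockout library 1 highest. Igf1 was followed by Lcn8 (0.10) and Serpina1b (0.12), against 0.62. Lcn8 stood at 30.3, 18.9 and 22.5 CPM in controls and 13.4, 10.6 and 9.80 CPM in knockouts. Fgf13 was followed by Samd4 (0.17) and Prkab2 (0.18), a subunit of AMP-activated kinase, against 0.94. Ptgds was followed by Pcsk4 (0.15) and Adrb1 (0.16), the beta-1 adrenergic receptor, against 0.43. Metrnl was followed by Cdc42ep3 (0.11) and Cldn5 (0.13), a junction protein of endothelium, against 0.41. For Fgf21 the nearest genes, Trib3 and Plk3, lay 0.58 away against a spread of 0.97, so no gene followed it closely. All 6 libraries enter both the ranking and the values, and with so few points a close match is a description only.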
